A study of Mus musculus with 20 samples.

Results

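Most tiles covered in the mouse oocyte genome had methylation levels of at most 25% or at least 75%, and the results below concern those in between. A tile is a window of 100 bp. It was kept where its methylation level, the share of calls read as methylated, lay above 25% and below 75% in both Oocyte libraries and where the mean of the Sperm libraries was at most 25% or at least 75%. By this rule 1712 of the 71949 autosomal tiles covered in the Oocyte, Sperm and maternal pronuclear libraries were partly methylated in oocytes, which is 2.38% of them. In 608 of the 1712 the sperm level was at most 25% (sperm-low tiles) and in 1104 it was at least 75% (sperm-high tiles). The tiles were chosen by their measured oocyte and sperm levels, so those levels are given as a description only.

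The series measured CpG methylation by reduced representation bisulfite sequencing in 20 libraries, in 10 groups of 2. Maternal and paternal pronuclei came from zygotes of CKO females (Zp3-Cre, f/-) treated with aphidicolin (CKO-Mat-Aphi, CKO-Pat-Aphi) or mock (CKO-Mat, CKO-Pat), and from zygotes of WT females (f/f) treated with aphidicolin (WT-Mat-Aphi, WT-Pat-Aphi) or mock (WT-Mat, WT-Pat). The other 2 groups were Oocyte and Sperm, both labelled WT and mock. All females were 7 to 10 weeks old and superovulated, and every zygote had a C57BL/6J father, so only the maternal Tet3 allele was targeted. Aphidicolin was given at 3 µg/ml from 5 h after fertilisation, and pronuclei were taken at 12 h and frozen at 13 h. Zp3-Cre acts in growing oocytes, and a typical pronuclear library was made from about 20 pronuclei with 21 PCR cycles. The labels do not say whether the 2 libraries of a group came from separate females, so every spread given here is the spread between libraries.

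Oocytes gain their methylation during growth, mainly across transcribed regions, through the methyltransferase DNMT3A and its partner DNMT3L, whereas most CpG islands stay unmethylated. After fertilisation Tet3, a dioxygenase stored in the egg, oxidises 5-methylcytosine, and DNA replication dilutes methylation that is not copied to the new strand. Aphidicolin blocks the replicative DNA polymerases, so the comparison with mock asks how far a level depends on replication, and the comparison of CKO with WT asks how far it depends on maternal Tet3. Bisulfite reads show 5-methylcytosine and 5-hydroxymethylcytosine alike, so a level is the sum of both.

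The libraries held between 22431861 and 68056783 calls. A partly methylated tile had a median of 179 calls per library over the 12 libraries of the rule, against 239 for all tiles, and the shallowest tile and library had 10. The check of parental identity used 10900 tiles of at least 75% in both Sperm and at most 25% in both Oocyte libraries. Their mean level was 9.33% ± 1.15 in CKO-Mat, 6.76% ± 2.89 in CKO-Mat-Aphi, 4.41% ± 0.132 in WT-Mat-Aphi, 3.22% ± 0.249 in WT-Mat and 3.20% ± 0.0240 in Oocyte libraries (SD, n = 2 each). Both CKO-Mat libraries and CKO-Mat-Aphi replicate 1 lay above 8%, and the other maternal libraries below 5%. The deposited files of all mock pronuclear libraries list chromosomes in sorted order and those of the aphidicolin and gamete libraries do not, so any difference in handling that goes with this cannot be told apart from the treatment.

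In oocytes the 1712 tiles averaged 48.7% ± 0.289 (SD, n = 2). Library 1 alone placed 3349 tiles between the limits and library 2 alone 3438, while both did so for 1952, of which 240 were set aside because sperm lay between the limits as well. Another 2883 tiles lay between the limits in 1 Oocyte library only. At the lower limit, the tile at chr2:149656201-149656300 was just inside with 25.1% and 30.2% in the Oocyte libraries, and chr7:31741201-31741300 just outside with 27.9% and 25%. At the upper limit, chr4:141795101-141795200 was inside with 74.9% and 68.3%, and chr1:106890901-106891000 outside with 68.4% and 75.0%.

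The partly methylated tiles were mostly single tiles with few CpGs. They held a median of 3 CpGs and at most 21, and 1431 of the 1559 runs of tiles less than 500 bp apart consisted of 1 tile. The sperm-low tiles had a median of 6 covered positions in oocytes (each strand of a CpG counts as a position), the same as tiles of at least 75% in oocytes and at most 25% in sperm, and the sperm-high tiles had 3, the same as tiles of at least 75% in both gametes. They lay on every autosome, from 1.88% of the covered tiles of chromosome 15 to 3.44% of those of chromosome 6. An annotation of mm9, the build of the files, was not used here, so tiles are named by position and not by gene.

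Neighbouring tiles were covered on both sides for few of them. The neighbour on each side was the nearest covered tile within 1000 bp, passing over any of the 1712 tiles themselves. Both sides had such a neighbour for 90 of the 1712 tiles. Of these 90, 23 (25.6%) had a methylated tile (Oocyte mean of at least 75%) on one side and an unmethylated one (at most 25%) on the other. The same held for 4.63% of 259 tiles of at least 75% in oocytes and at most 25% in sperm, for 1.06% of 94 tiles of at least 75% in both gametes, and for 0.609% of all 20867 tiles with 2 such neighbours. Another 12 of the 90 lay between unmethylated tiles on both sides and 2 between methylated ones. In the largest part, 53 (58.9%), at least 1 of the neighbours had an Oocyte mean between the limits. That held for 7.34% and 5.32% of the same 2 classes, in that order, and for 1.43% of all tiles with 2 such neighbours. Only 7 of the 90 were sperm-high, so this description is nearly all of sperm-low tiles.

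Within a tile, the intermediate level had more than one form. Of the 1689 tiles with at least 2 CpGs read in both Oocyte libraries, 276 (16.3%) had every position between 25% and 75%. In 92 (5.45%) the tile held at least 1 position of 75% or more and at least 1 of 25% or less, so the tile average hid positions of both kinds. These 92 made up 8.97% of the sperm-low and 3.50% of the sperm-high tiles with at least 2 CpGs. The tile could also be intermediate at a single CpG: of 16 tiles with 1 CpG read on both strands, 12 were between the limits on both strands, with a median difference of 18.5 points between the strands.

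In the 92 mixed tiles, positions high in oocytes averaged above positions low in oocytes in every maternal pronuclear library, and also in Sperm. Positions high in oocytes averaged 71.6% and 64.2% in CKO-Mat-Aphi libraries, 51.9% and 58.2% in CKO-Mat, 65.0% and 71.2% in WT-Mat-Aphi and 47.2% and 55.1% in WT-Mat. Positions low in oocytes averaged 21.2% and 28.5% in CKO-Mat-Aphi, 20.0% and 25.7% in CKO-Mat, 26.1% and 42.8% in WT-Mat-Aphi and 20.0% and 17.9% in WT-Mat. The gap was narrower than in oocytes, where the rule had set it at 93.1% and 94.6% against 5.80% and 5.51%. Tile by tile, the high positions lay above the low ones in 58.2% to 73.9% of the tiles that could be compared in a maternal library. Split by sperm level, the lowest shares were 48% of 25 sperm-high tiles in CKO-Mat-Aphi replicate 2 and 51.6% of 31 sperm-low tiles in WT-Mat-Aphi replicate 2. In Sperm the averages were 36.4% and 36.3% at high and 21.7% and 21.5% at low positions, with the high positions above in 44.9% and 45.6% of tiles, and all 8 paternal libraries had averages in the same order. These averages mix both sperm classes, and sperm-high tiles held 63 of the 181 high and 42 of the 154 low positions. In sperm-low tiles the Sperm averages were 2.52% and 2.63% at high and 0.937% and 0.833% at low positions. In sperm-high tiles they were 97.1% and 97.2% against 78.6% and 77.9%.

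**Figure D1:**
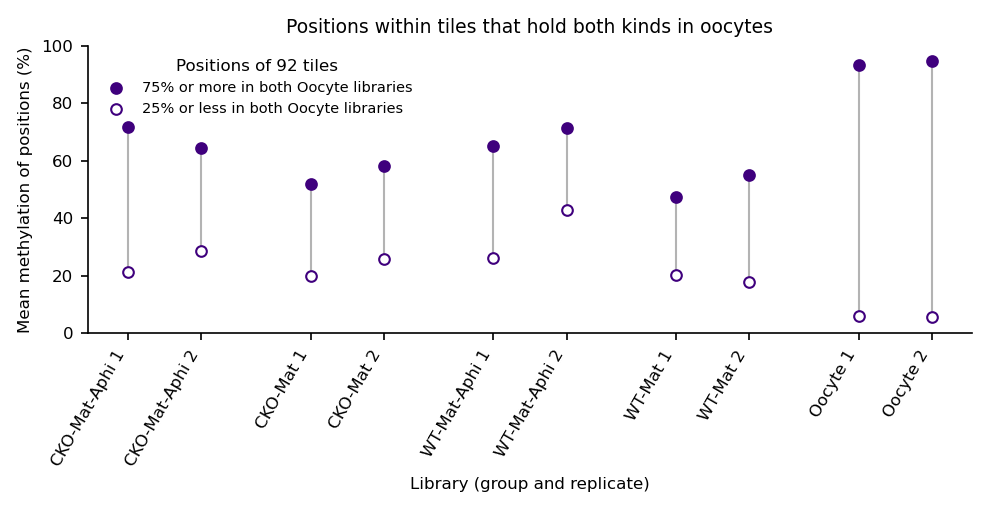
Mean methylation (%) of CpG positions in the 92 tiles that hold both kinds of position in oocytes, for each maternal pronuclear and Oocyte library; filled points are positions of 75% or more in both Oocyte libraries, open points positions of 25% or less. In the 8 pronuclear libraries filled points lie between 47.2% and 71.6% and open points between 17.9% and 42.8%.

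Levels were lower in mock maternal pronuclei than in oocytes and close to the oocyte level under aphidicolin. Over the 1712 tiles the mean was 45.2% and 47.2% in the CKO-Mat-Aphi libraries, 38.7% and 38.1% in CKO-Mat, 47.4% and 48.1% in WT-Mat-Aphi, and 33.9% and 35.7% in WT-Mat, against 48.5% and 48.9% in Oocyte libraries. The 2 libraries of each group lay close together, and in both genotypes both aphidicolin libraries lay above both mock libraries. WT-Mat was 13.9 points below Oocyte, which leaves 0.714 of the oocyte level. In tiles of at least 75% in oocytes the difference was of similar size in points, 11.6 where sperm was at most 25% and 14.1 where sperm was at least 75%, but left 0.880 and 0.854 of the oocyte level. The oocyte levels chose the tiles, so a difference from them is in part a result of the choice, and no test is given.

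**Figure D2:**
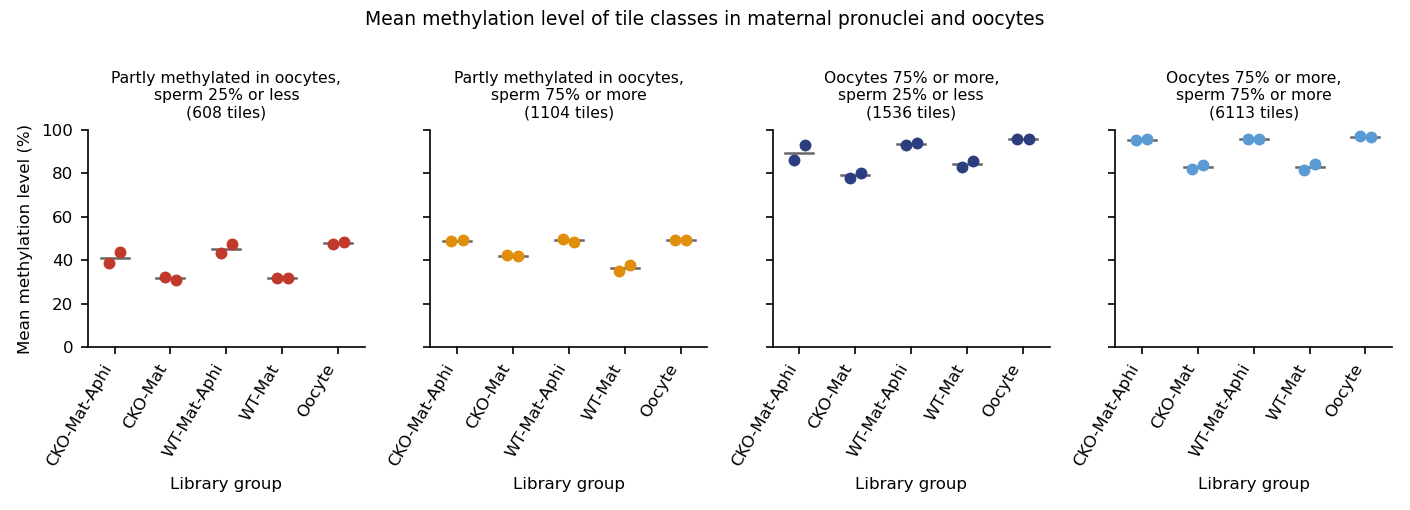
Mean methylation level (%) of 4 classes of tiles in each maternal pronuclear and Oocyte library (points are libraries, lines are group means of 2). In both partly methylated classes the aphidicolin libraries lie above the mock libraries of the same genotype.

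With aphidicolin the mean was higher in both genotypes, by more than the libraries of a group differed. WT-Mat-Aphi averaged 47.7% ± 0.445 and WT-Mat 34.8% ± 1.27 (SD, n = 2 each), a difference of 12.9 points, and the 4 pairings of a WT-Mat-Aphi with a WT-Mat library gave between 11.7 and 14.1 points. CKO-Mat-Aphi averaged 46.2% ± 1.39 and CKO-Mat 38.4% ± 0.452, a difference of 7.82 points (6.51 to 9.12). An exact permutation test of 2 libraries against 2 cannot give a p below 0.333, so no p is given for these means. In WT the difference was 13.6 points in sperm-low and 12.6 points in sperm-high tiles, and in CKO it was 9.60 and 6.84 points. The effect of aphidicolin was thus 5.12 points smaller in CKO than in WT over the partly methylated tiles, and 0.326 points smaller and 1.43 points larger over the sperm-high and sperm-low tiles of at least 75% in oocytes. This difference between genotypes was not tested.

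Without aphidicolin the mean over the 1712 tiles was 3.58 points higher in CKO-Mat than in WT-Mat. The genotypes differed by more than the spread between libraries in the sperm-high tiles, and by less than that in the sperm-low ones. The sperm-high tiles averaged 42.3% and 42.0% in CKO-Mat libraries and 35.1% and 37.9% in WT-Mat libraries, a difference of 5.63 points. The sperm-low tiles averaged 32.2% and 31.0% in CKO-Mat and 31.7% and 31.7% in WT-Mat, a difference of -0.146 points. The groups did not overlap over the sperm-high tiles, and they overlapped over the sperm-low ones. The 10900 tiles used for the check of parental identity were 6.12 points higher in CKO-Mat than in WT-Mat, and for 1502 tiles with the opposite gamete levels the difference was -5.39 points. The level of tiles methylated in sperm thus moved in the same direction as the sperm-high difference, and its part in it was not tested. The highest shares of calls on chromosome Y among maternal libraries were 0.00297% in CKO-Mat replicate 1 and 0.00163% in CKO-Mat-Aphi replicate 1. These libraries had levels of 8.52% and 8.80% in those 10900 tiles. The order was not the same throughout. CKO-Mat replicate 2 had a level of 10.1% and a chromosome Y share of 0.000296%, and WT-Mat replicate 1 had 3.04% and 0.000692%. How far the share and the level go together was not tested. Under aphidicolin the sperm-high tiles averaged 49.0% ± 0.202 in CKO-Mat-Aphi and 49.1% ± 0.918 in WT-Mat-Aphi, and the sperm-low tiles 41.2% ± 3.55 and 45.3% ± 2.92 in the same groups, differences within the spread between libraries.

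The mean hides how far single tiles moved apart. Of the 1712 tiles, 45.5% ± 3.43 stayed between 25% and 75% in CKO-Mat-Aphi, 54.4% ± 4.17 in CKO-Mat, 41.6% ± 0.95 in WT-Mat-Aphi and 47.1% ± 3.72 in WT-Mat (SD, n = 2 each). Tiles of 90% or more made up 12.9% and 16.1% in CKO-Mat-Aphi libraries against 3.68% and 4.32% in CKO-Mat, and 19.0% and 16.1% in WT-Mat-Aphi against 4.85% and 2.98% in WT-Mat. Tiles of 10% or less made up between 15.8% and 27.2% in every maternal library, with no order by treatment. Each aphidicolin library thus held more tiles near full methylation than each mock library, while the share near none showed no such order.

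**Figure D3:**
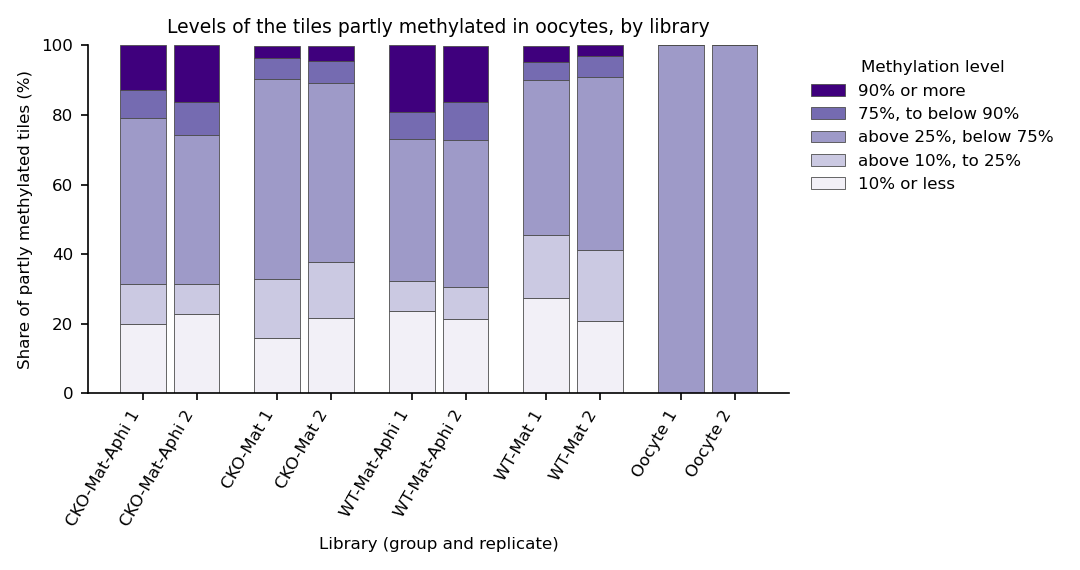
Share (%) of the 1712 tiles in 5 ranges of methylation level, for each maternal pronuclear and Oocyte library. The darkest segment, 90% or more, spans 12.9% to 19.0% in aphidicolin libraries and 2.98% to 4.85% in mock libraries; all tiles lie in the middle range in oocytes by the rule.

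Libraries of the same group disagreed about single tiles. The median absolute difference between the 2 libraries of a group was 25.4 points in CKO-Mat-Aphi, 18.3 in CKO-Mat, 25.4 in WT-Mat-Aphi and 16.7 in WT-Mat. It was 9.92 points in Oocyte, but the rule needed both Oocyte libraries between 25% and 75%. The choice of tiles thus limited the Oocyte value, and it is no measure of how well Oocyte libraries repeat. In tiles of at least 75% in oocytes the same median lay between 0 and 13.5 points over the 4 maternal groups and both sperm classes. Those tiles lay nearer the upper end of the scale, with maternal group means between 79.2% and 95.8%, which limits how far 2 libraries can differ. The part of this limit in the comparison was not tested. In 20.2% of the 1712 tiles the CKO-Mat-Aphi libraries were over 50 points apart, against 7.94% in CKO-Mat, and the WT-Mat-Aphi libraries in 21.7%, against 8.94% in WT-Mat. The aphidicolin libraries had fewer calls per tile, with medians of 157 and 144 in CKO-Mat-Aphi against 216 and 230.5 in CKO-Mat, and of 165 and 107 in WT-Mat-Aphi against 222 and 200 in WT-Mat. The part of depth in the wider spread was not tested. Across the 1712 tiles, the mean of a maternal group correlated with the oocyte mean with r between 0.372 and 0.412, as a description over tiles, which are not independent samples.

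**Figure D4:**
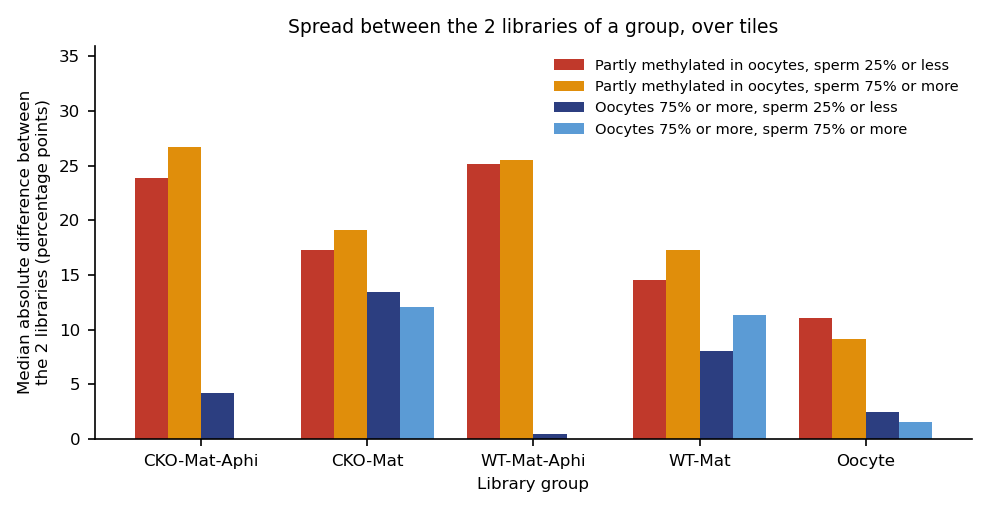
Median over tiles of the absolute difference (percentage points) between the 2 libraries of each group, for the 2 partly methylated classes and the 2 classes of at least 75% in oocytes. Both partly methylated classes reach 23.9 to 26.7 points in the aphidicolin groups, where the other classes lie at 4.24 points or less. The Oocyte values are limited by the oocyte levels that chose the classes. The classes of at least 75% in oocytes lie nearer the upper end of the scale, which limits their values in every group.

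Only 32 tiles were between the limits in all 8 maternal pronuclear libraries, and 45 were in none. The median number of maternal libraries in which a tile stayed between the limits was 4. Over the 10 maternal and Oocyte libraries the level of a tile spanned a median of 69.7 points, and 66.4 points over the 1010 tiles with at least 50 calls in each of these libraries. The steadiest of those was the sperm-high tile at chr10:58567001-58567100, which spanned 14.0 points. It measured 78.4% and 75.7% in CKO-Mat-Aphi, 76.0% and 74.3% in CKO-Mat, 82.5% and 76.1% in WT-Mat-Aphi, 68.5% and 69.8% in WT-Mat and 69.3% and 74.4% in Oocyte libraries. Second was chr9:17001301-17001400, the deepest of the named tiles with a mean of 5189 calls per library. It measured 45.6% and 51.2% in CKO-Mat-Aphi, 42.5% and 47.1% in CKO-Mat, 39.5% and 35.9% in WT-Mat-Aphi, 35.1% and 34.3% in WT-Mat and 44.3% and 43.0% in Oocyte libraries. In these 2 tiles no maternal library lay near either end of the scale.

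At the other end, 5 named tiles spanned 100 points. The sperm-high tile at chr10:59455401-59455500 measured 0% and 100% in the CKO-Mat-Aphi libraries, 21.5% and 15.4% in CKO-Mat, 100% and 100% in WT-Mat-Aphi, 76.5% and 85.2% in WT-Mat and 61.6% and 50.0% in Oocyte libraries. The sperm-low tile at chr19:46403601-46403700 measured 11.6% and 100% in CKO-Mat-Aphi, 25.5% and 21.9% in CKO-Mat, 94.2% and 50.6% in WT-Mat-Aphi, 0% and 25.5% in WT-Mat and 57.2% and 72.1% in Oocyte. In both tiles 1 group held a library at 100% and another far below it.

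For runs of neighbouring tiles the mean over the run is given. The run with most calls among those of 4 tiles was chr2:149656201-149656900, all sperm-low. It averaged 54.6% and 38.4% in CKO-Mat-Aphi, 9.04% and 26.6% in CKO-Mat, 44.6% and 33.1% in WT-Mat-Aphi and 73.2% and 43.9% in WT-Mat, against 41.6% and 43.5% in Oocyte libraries. The run at chr1:78306601-78307300 averaged 59.2% and 15.1% in CKO-Mat-Aphi, 46.9% and 27.2% in CKO-Mat, 0.701% and 93.0% in WT-Mat-Aphi and 66.8% and 44.1% in WT-Mat, against 54.2% and 54.2% in Oocyte. Both Oocyte libraries were close to each other there, and the 2 WT-Mat-Aphi libraries lay near opposite ends of the scale. At chr2:34769401-34769900 the aphidicolin and mock libraries of each genotype did not overlap in CKO, with 40.6% and 45.0% in CKO-Mat-Aphi against 30.5% and 15.4% in CKO-Mat, and did overlap in WT, with 24.9% and 7.62% in WT-Mat-Aphi against 11.7% and 3.01% in WT-Mat.

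Few single tiles passed a test across all tiles. A quasi-binomial test with the dispersion shrunk by limma was run over all 71949 tiles, and a call needed a Benjamini-Hochberg adjusted p under 0.05 together with a change of 10 points or more. With aphidicolin, 2 of the 1712 tiles were called higher and 0 lower in WT-Mat-Aphi than in WT-Mat (0.0195% and 0.00139% of all tiles), and 4 higher and 0 lower in CKO-Mat-Aphi than in CKO-Mat (0.0167% and 0.00278%). Between genotypes, 0 were called higher and 2 lower in CKO-Mat than in WT-Mat (0.00139% and 0.00278%), and 1 higher and 0 lower in CKO-Mat-Aphi than in WT-Mat-Aphi (0.00278% and 0.00556%). The difference of the aphidicolin effects between CKO and WT was called in 2 tiles as higher and in 1 as lower in CKO (0.00417% and 0.00556% of all tiles). Without adjustment, p was under 0.05 and the level higher for 199 tiles (11.6%) in WT-Mat-Aphi against WT-Mat. The level was lower for 35 (2.04%). All tiles gave 1.84% higher and 0.281% lower, but most of them are near 0 in every group. Classes methylated in oocytes are a closer comparison. Tiles methylated in oocytes but not in sperm gave 7.75% higher and 0.911% lower. Tiles methylated in both gametes gave 7.07% and 0.0982%. Without adjustment, the CKO comparisons of the maternal libraries gave 151 higher and 43 lower for CKO-Mat-Aphi against CKO-Mat (1.87% and 0.595% of all tiles). They gave 89 and 53 for CKO-Mat against WT-Mat (1.24% and 0.603%), and 80 and 92 for CKO-Mat-Aphi against WT-Mat-Aphi (0.741% and 0.671%). As shares of the 1712 tiles these were 8.82% and 2.51%, 5.199% and 3.096%, and 4.67% and 5.37%. Tiles methylated in oocytes but not in sperm gave 13.7% and 1.11%, 1.43% and 7.49%, and 0.846% and 3.97%. Those methylated in both gametes gave 7.198% and 0.213%, 1.21% and 1.19%, and 0.491% and 0.573%. The share higher in the first comparison and the share lower in the second lay between those classes, and the other shares above both. This was not tested. The counts of calls depended on the test. For WT-Mat-Aphi against WT-Mat, limma on transformed levels called 11 higher and 2 lower (214 and 10 of all 71949 tiles). For CKO-Mat-Aphi against CKO-Mat it called 17 and 5 (460 and 304 of all tiles). edgeR called 0 in each, where it called 7 and 2 of all tiles higher and 0 lower. This test takes the spread of a tile from the Oocyte libraries too, whose values chose the tiles. With no Oocyte library in the fit, an alternative chosen after the data were seen, the calls were 1 higher for WT-Mat-Aphi against WT-Mat, 2 higher for CKO-Mat-Aphi against CKO-Mat, 2 lower for CKO-Mat against WT-Mat and 0 for CKO-Mat-Aphi against WT-Mat-Aphi and for the difference of effects. Over all 71949 tiles that fit called 6 and 0, 7 and 0, 1 and 2, 0 and 0, and 0 and 1, higher and lower, in the same order. At an unadjusted p under 0.05 it gave 185, 160, 91, 141 and 111 of the 1712 tiles, both directions together. The share over all tiles is not given for these counts, so whether they exceed it cannot be read from them. Leaving out 1 library gave 0 to 4 called higher for WT-Mat-Aphi against WT-Mat (0 without WT-Mat replicate 1, 4 without either CKO-Mat-Aphi library) and 1 to 5 for CKO-Mat-Aphi against CKO-Mat (1 without CKO-Mat replicate 2, 5 without CKO-Mat replicate 1).

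Counted by libraries that did not overlap, the same direction was broader. Both WT-Mat-Aphi libraries lay above both WT-Mat libraries in 521 tiles (30.4%) and below them in 151 (8.82%), where all tiles gave 8.65% and 3.99%. Both CKO-Mat-Aphi libraries lay above both CKO-Mat libraries in 428 tiles (25%) and below in 196 (11.4%), where all tiles gave 8.39% and 6.6%. Most of all tiles are near 0 in every group, so a closer comparison is with tiles of at least 75% in both gametes, of which 45.7% and 44.8% lay above and 1.15% and 1.31% below in WT and CKO. These shares were not tested against those of the partly methylated tiles. Both CKO-Mat libraries lay above both WT-Mat libraries in 365 tiles (21.3%) and below in 226 (13.2%), where all tiles gave 8.87% and 5.23%. Tiles of at least 75% in both gametes gave 14.2% and 15.1%. Those of at least 75% in oocytes and at most 25% in sperm gave 8.01% and 27.2%. Both CKO-Mat-Aphi libraries lay above both WT-Mat-Aphi libraries in 223 (13.0%) and below in 270 (15.8%), where all tiles gave 3.71% and 3.14%. The same 2 classes gave 3.17% and 4.14%, and 5.79% and 10.0%. Without ties, 2 libraries against 2 fail to overlap, in either direction, with a probability of 0.333 where nothing differs. These genotype shares were not tested.

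The tiles called for aphidicolin in WT were both sperm-low. At chr12:3982001-3982100 the WT-Mat-Aphi libraries measured 100% and 99.1%, against 35% and 26.7% in WT-Mat, with 67.5% and 41.1% in Oocyte libraries. The difference was 68.7 points (adjusted p = 0.00561), and the call was lost without WT-Mat-Aphi replicate 1 or WT-Mat replicate 1. With no Oocyte library in the quasi-binomial fit its adjusted p was 0.0382. At chr15:79059801-79059900 the WT-Mat-Aphi libraries measured 54.5% and 78.7%, against 2.54% and 13.6% in WT-Mat, with 56.9% and 71.9% in Oocyte libraries. The difference was 58.5 points (adjusted p = 0.0146), and the call was lost in 6 of the 10 fits that left out 1 library, the Oocyte, WT-Mat-Aphi and WT-Mat ones, and with no Oocyte library (adjusted p = 0.109). In both tiles the mock libraries lay below both Oocyte libraries.

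Of the 4 tiles called higher in CKO-Mat-Aphi than in CKO-Mat, 3 were sperm-low. At chr17:46633701-46633800 the CKO-Mat-Aphi libraries measured 90.8% and 90.6%, against 9.95% and 43.9% in CKO-Mat, with 48.0% and 42.1% in Oocyte libraries. The difference was 63.8 points (adjusted p = 8.62e-05), and the call was lost without CKO-Mat replicate 1. With no Oocyte library in the fit 2 of the 4 calls were kept, chr17:46633701-46633800 (adjusted p = 0.00185) and chr4:141795101-141795200 (adjusted p = 0.0102). At chr4:97251301-97251400, the sperm-high tile, both CKO-Mat-Aphi libraries measured 100%, against 13.4% and 28.1% in CKO-Mat, with 43.9% and 57.4% in Oocyte (difference 79.2 points, adjusted p = 0.0138). That call was lost without either CKO-Mat library, either Oocyte library or CKO-Mat-Aphi replicate 2. At chr4:141795101-141795200 the CKO-Mat-Aphi libraries measured 87.0% and 82.7%, against 55.4% and 9.38% in CKO-Mat (difference 52.5 points, adjusted p = 0.000562, lost without CKO-Mat-Aphi replicate 2 or CKO-Mat replicate 2). The groups of these 3 tiles did not overlap. The fourth, chr2:112295301-112295400, measured 71.1% and 10.3% in CKO-Mat-Aphi against 27.3% and 0% in CKO-Mat, so its groups overlapped although it was called (difference 27.1 points, adjusted p = 0.0496), and without CKO-Mat-Aphi replicate 1 the difference was -3.33 points. Its call was lost in 6 of the 10 fits that left out 1 library.

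Both tiles called lower in CKO-Mat than in WT-Mat were sperm-low. At chr17:46633801-46633900, beside the tile above on the same chromosome, the CKO-Mat libraries measured 38.7% and 20.0%, against 85.5% and 99.3% in WT-Mat, with 52.5% and 47.6% in Oocyte libraries (difference -63.0 points, adjusted p = 3.14e-05). At chr2:149656801-149656900 the CKO-Mat libraries measured 2.38% and 5.66%, against 99.9% and 29.7% in WT-Mat, with 55.0% and 42.0% in Oocyte (difference -60.8 points, adjusted p = 3.14e-05). At least 1 WT-Mat library lay far above the oocyte level in both, and both calls were lost without WT-Mat replicate 1, the first also without CKO-Mat replicate 2. With no Oocyte library in the quasi-binomial fit both kept an adjusted p of 0.000766. Neighbouring tiles did not always go together: WT-Mat replicate 1 measured 15.0% at chr17:46633701-46633800 and 85.5% at the next tile, and WT-Mat-Aphi replicate 1 measured 100% and 13.9%. The only tile called between genotypes under aphidicolin, chr6:65331201-65331300, measured 95.1% and 12.5% in CKO-Mat-Aphi against 0.0978% and 2.40% in WT-Mat-Aphi (difference 52.6 points, adjusted p = 0.0483), and lost its call without CKO-Mat-Aphi replicate 1, WT-Mat-Aphi replicate 1 or any 1 of the Oocyte and WT-Mat libraries.

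The largest differences were often in tiles that were not called. Among tiles whose 4 libraries each held 50 calls or more and whose groups did not overlap, chr17:6033801-6033900 had the largest difference for WT-Mat-Aphi against WT-Mat. It measured 100% and 100% in WT-Mat-Aphi against 0% and 25.4% in WT-Mat, a difference of 87.3 points (adjusted p = 0.115). For CKO-Mat-Aphi against CKO-Mat it was chr1:134192001-134192100, with 98.9% and 100% in CKO-Mat-Aphi against 15.9% and 0% in CKO-Mat, a difference of 91.5 points (adjusted p = 0.383). For CKO-Mat against WT-Mat it was chr5:37778101-37778200, with 96.6% and 92.2% in CKO-Mat against 15.0% and 35.9% in WT-Mat, a difference of 69.0 points (adjusted p = 0.0549, and under 0.05 without any 1 library of CKO-Mat-Aphi or WT-Mat-Aphi). For CKO-Mat-Aphi against WT-Mat-Aphi it was chr2:171326101-171326200, with 0% in both CKO-Mat-Aphi and 100% in both WT-Mat-Aphi libraries (adjusted p = 1). Differences across nearly the whole scale thus missed the threshold. The dispersion fitted to these libraries had a median of 47.3 times the binomial variance over all tiles and over the 1712.

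In paternal pronuclei the 686 tiles that were also covered in all 8 paternal libraries followed their sperm level. The 386 sperm-low tiles averaged between 3.42% and 6.70% in every paternal library, against 2.51% and 2.57% in Sperm. Over the 300 sperm-high tiles the mean was 91.4% and 93.4% in CKO-Pat-Aphi, 69.1% and 73.1% in CKO-Pat, 90.7% and 90.8% in WT-Pat-Aphi and 58.9% and 63.3% in WT-Pat, against 93.6% and 93.7% in Sperm. WT-Pat kept 0.652 of the sperm level in these tiles, against 0.557 in tiles of at least 75% in both gametes and 0.564 in tiles methylated only in sperm. CKO-Pat kept 0.759, against 0.721 and 0.668 in the same classes. The choice of these tiles used their sperm level, so these ratios are a description.

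**Figure D5:**
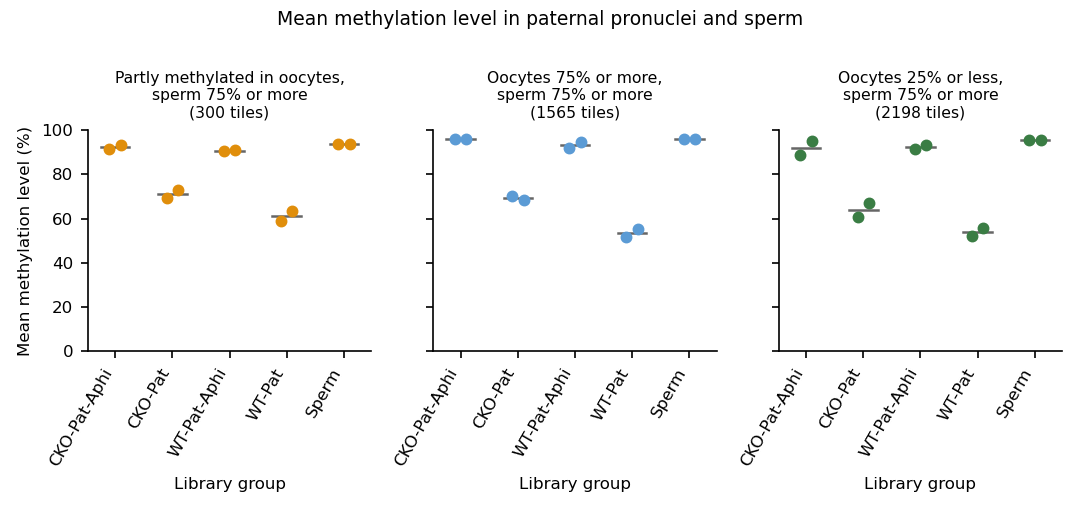
Mean methylation level (%) of sperm-high tiles partly methylated in oocytes, and of 2 classes methylated in sperm, in each paternal pronuclear and Sperm library (points are libraries, lines are group means of 2). In the partly methylated tiles both WT-Pat libraries lie below both CKO-Pat libraries, and all aphidicolin libraries lie between 90.7% and 93.4%.

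Paternal levels of the sperm-high tiles were higher with aphidicolin in both genotypes, and higher in CKO than in WT without aphidicolin. WT-Pat-Aphi averaged 90.8% ± 0.113 and WT-Pat 61.1% ± 3.15 (SD, n = 2 each), a difference of 29.7 points, against 39.6 points in tiles of at least 75% in both gametes. CKO-Pat-Aphi averaged 92.4% ± 1.37 and CKO-Pat 71.1% ± 2.84, a difference of 21.3 points. CKO-Pat was 10.0 points above WT-Pat, and 15.7 points above it in tiles of at least 75% in both gametes. These 3 differences in the sperm-high tiles are larger than the spread between libraries, and how they differ from those of the other class was not tested. Under aphidicolin CKO-Pat-Aphi was 1.63 points above WT-Pat-Aphi, with a median difference of 0 over the 300 tiles and 42.3% of them higher, and 0.668 points above it without CKO-Pat-Aphi replicate 2. Both WT-Pat-Aphi libraries lay above both WT-Pat libraries in 163 of the 300 tiles (54.3%), where all 38018 tiles covered in the paternal libraries gave 10.8%. They lay below both WT-Pat libraries in 6 (2%), and the share of all tiles below is not given here. Of the 1565 tiles of at least 75% in both gametes, 67.3% lay above and 0.575% below.

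Over those 38018 tiles the same test, with the Sperm libraries in the fit, called 5 of the 686 tiles higher and 0 lower in WT-Pat-Aphi than in WT-Pat (0.329% and 0.00263% of all tiles), all sperm-high, and 2 higher and 0 lower in CKO-Pat-Aphi than in CKO-Pat (0.0815% and 0%). It called 0 for CKO-Pat against WT-Pat (0.0368% and 0%) and 0 for CKO-Pat-Aphi against WT-Pat-Aphi (0.00263% and 0%). At an unadjusted p under 0.05, CKO-Pat against WT-Pat gave 31 of the 686 tiles higher and 7 lower, or 4.52% and 1.02% (1.92% and 0.547% of all tiles). Tiles methylated in oocytes but not in sperm gave 4.94% and 0.395%, and those methylated in both gametes 12.5% and 0.383%. CKO-Pat-Aphi against WT-Pat-Aphi gave 16 and 4, or 2.33% and 0.583% (0.997% and 0.642% of all tiles). The same classes gave 6.12% and 0.691%, and 1.47% and 0.319%. limma on transformed levels called 6 higher and 2 lower in the first of these comparisons (82 and 28 of all 38018 tiles). In the second it called 1 higher and 0 lower (27 and 13 of all tiles). edgeR called 0 in both (0 and 0, and 18 and 9, of all tiles). For the difference of the aphidicolin effects between CKO and WT the quasi-binomial test called 0 of the 686 tiles (0% and 0.00526% of all tiles were called higher and lower). At an unadjusted p under 0.05 it gave 8 higher and 13 lower. The share over all tiles is not given for these, so whether the counts exceed it cannot be read from them. edgeR called 0 (5 and 23 of all tiles), and limma on transformed levels 0 higher and 3 lower (12 and 27 of all tiles). For WT-Pat-Aphi against WT-Pat, edgeR called 84 higher and 2 lower (1636 and 79 of all 38018 tiles). limma on transformed levels called 34 and 0 (795 and 40 of all tiles). With no Sperm library in the fit, 1 tile was called higher in WT-Pat-Aphi than in WT-Pat (25 of all tiles). In CKO-Pat-Aphi 2 were called higher than in CKO-Pat (5 of all tiles), and 0 were called in the other comparisons. For WT-Pat-Aphi against WT-Pat, leaving out 1 library gave between 0 (without WT-Pat-Aphi replicate 2) and 17 called higher.

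At chr17:6944301-6944400 both WT-Pat-Aphi libraries measured 100%, against 2.67% and 16.6% in WT-Pat, with 95.5% and 98.1% in Sperm. The difference was 90.4 points (adjusted p = 0.00375, lost without WT-Pat-Aphi replicate 2, and 0.0432 with no Sperm library in the fit). In the maternal libraries the same tile measured 40.7% and 0.752% in CKO-Mat-Aphi, 41.8% and 29.7% in CKO-Mat, 24.5% and 26.4% in WT-Mat-Aphi and 55.6% and 34.5% in WT-Mat. At chr7:108025101-108025200 both WT-Pat-Aphi libraries measured 100%, against 0% and 24.8% in WT-Pat (difference 87.6 points, adjusted p = 0.0206), and the CKO-Pat libraries measured 82.9% and 88.6%. That call was lost without either Sperm library, WT-Pat-Aphi replicate 2 or WT-Pat replicate 2. The same tile measured 41.6% and 16.1% in WT-Mat-Aphi and 21.4% and 24.5% in WT-Mat. Both tiles were at full methylation in the WT-Pat-Aphi libraries.

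The deepest named tile held 2 covered positions. At chr9:17001301-17001400 the CKO-Pat-Aphi libraries measured 93.7% and 95.1% and the CKO-Pat libraries 74.4% and 75.1% (difference 19.7 points, adjusted p = 0.0341), and WT-Pat-Aphi measured 93.6% and 89.7% against 76.1% and 71.6% in WT-Pat. The call in CKO was lost without any 1 of its 4 libraries, and had an adjusted p of 0.0428 with no Sperm library in the quasi-binomial fit. The 2 libraries of a group lay within 5 points of each other in 9 of the 10 groups. Its mean maternal level was 48.4% in CKO-Mat-Aphi, 44.8% in CKO-Mat, 37.7% in WT-Mat-Aphi and 34.7% in WT-Mat. It was 1 of 3 partly methylated tiles with over 10 times the median depth of all tiles.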

How the data were processed

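Per the labels' protocols, DNA of about 20 pronuclei was typically cut with MspI, bisulfite converted and amplified in 21 cycles. Trim Galore, Bismark 0.10.1 and the build mm9 are named in the submitters' processing notes. At every position the deposited files hold a methylated and an unmethylated call count, not normalised, and the deposited percent is the methylated share, equal to that of the counts within 7.11e-14. The sources used here do not give filters or any removal of duplicates, and PCR copies are not independent molecules, so the depth overstates precision.

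Positions with at least 5 reads were summed in 100-bp tiles, which needed 2 such positions and 10 calls in the Oocyte, Sperm and 8 maternal libraries, and for paternal values in the 8 paternal libraries too. The tiles, classes and tests were chosen with earlier results of these data known. Replicate numbers came from the labels. Same-numbered libraries deviated together little (correlations over tiles between -0.0587 and 0.130 across the 8 comparisons, the highest for CKO-Pat-Aphi against WT-Pat-Aphi). No block was used in the main test, though the labels do not say whether these libraries belong together.

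The test was a quasi-binomial model per tile with 1 level per group, fitted to the 10 libraries of a parent (its gamete included). Its dispersion came from groups whose libraries expect 5 or more methylated and 5 or more unmethylated calls, was shrunk with limma 3.58.1 squeezeVar, and was kept at 1 or more. An F test, Benjamini-Hochberg adjustment over all tiles and a difference of at least 10 points gave the calls. edgeR 4.0.16 and limma on arcsine square roots were alternatives, as were 10 reads per position, equal weight for each position, oocyte limits of 35% and 65%, 1 tile per run, and leaving out each library, where the lone library of a group is taken to vary like the others. Because the gamete values chose the tiles and enter the dispersion, a fit to the 8 pronuclear libraries of a parent was added after the data were seen.

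Tiles named in the text are those called, those with the largest difference among tiles of at least 50 calls per library and groups that do not overlap, the longest runs, those with the smallest and largest range, and those nearest the limits. Called tiles not described are in the counts. R 4.3.3 and Python 3.11.15 were used. No sequence is printed, since a genome of the build of the files was not used here.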

Additional observations from a re-analysis of the deposited data

Results flagged for a closer look

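The interaction of treatment and genotype was called in 3 of the 1712 tiles by the quasi-binomial test (2 higher and 1 lower in CKO, where all tiles gave 0.00417% and 0.00556%), and every one of these calls was lost with edgeR, with limma on transformed levels, with no Oocyte library in the fit (adjusted p = 0.213, 0.288 and 0.288 with the quasi-binomial test, in the order below) and without some single library. At chr6:65331201-65331300 the difference between aphidicolin and mock in CKO exceeded that in WT by 75.3 points (adjusted p = 0.0282): the tile measured 95.1% and 12.5% in CKO-Mat-Aphi against 21.6% and 0% in CKO-Mat, and 0.0978% and 2.40% in WT-Mat-Aphi against 43.0% and 24.0% in WT-Mat. At chr2:152202301-152202400 it was 91.9 points higher (adjusted p = 0.0495), with 78.6% and 100% in CKO-Mat-Aphi against 19.8% and 11.0% in CKO-Mat, and 25.9% and 93.4% in WT-Mat-Aphi against 84.6% and 70.6% in WT-Mat. At chr8:119409601-119409700 it was -86.7 points (adjusted p = 0.0495), with 0% in both CKO-Mat-Aphi libraries against 34.2% and 81.4% in CKO-Mat, and 55.3% and 54.5% in WT-Mat-Aphi against 31.7% and 20.3% in WT-Mat. The first lost its call without CKO-Mat-Aphi replicate 1, WT-Mat-Aphi replicate 1, WT-Mat replicate 1 or either Oocyte library, the second in 8 and the third in 9 of the 10 fits that left out 1 library.

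In 5 other named tiles every library of CKO moved one way with aphidicolin and every library of WT the other way, without a call for the difference (adjusted p = 1 in each, quasi-binomial test). The difference of the effects, CKO minus WT, was 39.0 points at chr16:91593301-91593400, -102 points at chr2:171326101-171326200, -63.3 points at chr15:76036701-76036800, -106 points at chr6:99472601-99472700 and 92.6 points at chr13:17911801-17911900. All but the first were named for their large difference between CKO-Mat-Aphi and WT-Mat-Aphi. The same values enter the difference of the effects, so the choice itself favours such tiles. How many of all tiles move this way was not counted.

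Calls on chromosome Y, which oocytes lack, made up more of each maternal library than of either Oocyte library (at most 4.41e-05%). The share was 0.00163% and 9.3e-05% in CKO-Mat-Aphi, 0.00297% and 0.000296% in CKO-Mat, 6.77e-05% and 0.000508% in WT-Mat-Aphi and 0.000692% and 0.000198% in WT-Mat, against at least 0.0111% in Sperm. The part of this signal in the levels of the partly methylated tiles was not tested.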

How the results depend on the processing

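Over the 1712 tiles the mean differences between maternal groups, and between WT-Mat and Oocyte, kept their direction and moved by less than the spread between libraries under every alternative run (10 reads per position, equal weight for positions, oocyte limits of 35% and 65%, no tiles of very high depth, 1 tile per run), and leaving out 1 library gave 12.04 to 13.8 points for WT-Mat-Aphi against WT-Mat, 6.83 to 8.80 for CKO-Mat-Aphi against CKO-Mat, 2.68 to 4.47 for CKO-Mat against WT-Mat, -2.53 to -0.557 for CKO-Mat-Aphi against WT-Mat-Aphi and -14.8 to -13.0 for WT-Mat against Oocyte. With oocyte limits of 35% and 65% the difference of WT-Pat-Aphi and WT-Pat over sperm-low tiles was -1.01 points, where the tiles as chosen gave 0.544. With the same limits CKO-Mat against WT-Mat over sperm-low tiles was 0.701 points (-0.146 as chosen, 0.0623 with 10 reads, 0.325 with 1 tile per run, -0.721 to 0.430 when 1 library was left out), CKO-Mat-Aphi against CKO-Mat over sperm-high tiles 8.05 (6.84 as chosen), WT-Mat against Oocyte over sperm-low tiles -17.1 (-16.1 as chosen, -16.7 with 1 tile per run), and CKO-Pat-Aphi against CKO-Pat over the 686 tiles 10.1 (9.53 as chosen, 10.6 with 1 tile per run). Leaving out 1 library gave -6.62 to -1.60 points for CKO-Mat-Aphi against WT-Mat-Aphi over sperm-low tiles, and -0.775 to 0.523 over sperm-high tiles (-0.126 as chosen, 0.646 with limits of 35% and 65%, 0.311 with 1 tile per run). The share of tiles between 25% and 75% in WT-Mat-Aphi was 40.2% with equal weight for positions and 43.0% with limits of 35% and 65%, against 41.6%. The cause was not tested.

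Counts of tiles called are given as higher, then lower. With limma on arcsine square roots they were 3 and 2 for CKO-Mat against WT-Mat, 11 and 2 for WT-Mat-Aphi against WT-Mat, 17 and 5 for CKO-Mat-Aphi against CKO-Mat, 6 and 3 for CKO-Mat-Aphi against WT-Mat-Aphi, 2 and 3 for the maternal interaction, 6 and 2 for CKO-Pat against WT-Pat, 34 and 0 for WT-Pat-Aphi against WT-Pat, 22 and 1 for CKO-Pat-Aphi against CKO-Pat, 1 and 0 for CKO-Pat-Aphi against WT-Pat-Aphi and 0 and 3 for the paternal interaction. Over all 71949 tiles limma gave 286 and 100, 214 and 10, 460 and 304, 45 and 29, and 45 and 82 in the same order. Over all 38018 tiles it gave 82 and 28, 795 and 40, 435 and 29, 27 and 13, and 12 and 27. edgeR gave 0 and 0, 7 and 0, 2 and 0, 8 and 13, and 5 and 14 over the 71949 tiles. Over the 38018 tiles it gave 0 and 0, 1636 and 79, 1763 and 142, 18 and 9, and 5 and 23. With edgeR the counts of partly methylated tiles were 0 and 0 in the first 3 comparisons, 1 and 4 in the fourth, 0 and 2 for the maternal interaction, 84 and 2 for WT-Pat-Aphi against WT-Pat, 81 and 2 for CKO-Pat-Aphi against CKO-Pat and 0 in the others. With only the libraries compared they were 1 and 0 for WT-Mat-Aphi against WT-Mat, 1 and 0 for CKO-Mat-Aphi against CKO-Mat, 0 for CKO-Mat-Aphi against WT-Mat-Aphi, the maternal interaction and WT-Pat-Aphi against WT-Pat, and 1 and 0 for CKO-Pat-Aphi against CKO-Pat. With no gamete library in the fit they were 0 and 2, 1 and 0, 2 and 0, and 0 and 0 for the first 4, 0 for both interactions, 1 and 0 for WT-Pat-Aphi against WT-Pat, 2 and 0 for CKO-Pat-Aphi against CKO-Pat and 0 in the others. With 10 reads per position they were 1 and 0 for the maternal interaction and for CKO-Pat-Aphi against CKO-Pat. Dropping the smallest difference changed no count. With the replicate block every comparison gave 0 tiles called, also over all tiles. At an unadjusted p under 0.05 the block gave 148, 255, 195 and 181 of the 1712 in the maternal comparisons in the order above. Without it the counts were 142, 234, 194 and 172. These counts take both directions together. With the block the share over all tiles is not given, so whether its counts exceed that share cannot be read from them. The labels do not say whether same-numbered libraries belong together, so which of the 2 fits is the better one is not settled. Leaving out 1 library gave 0 to 1 called higher and 0 to 4 lower for CKO-Mat against WT-Mat, 0 to 4 and 0 to 1 for WT-Mat-Aphi against WT-Mat, 1 to 5 and 0 to 1 for CKO-Mat-Aphi against CKO-Mat, 0 to 2 and 0 to 2 for CKO-Mat-Aphi against WT-Mat-Aphi, 0 to 3 and 0 to 1 for the maternal interaction, 0 to 17 higher for WT-Pat-Aphi against WT-Pat and 0 to 6 for CKO-Pat-Aphi against CKO-Pat.

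Of the 19 calls, all were lost without some single library, 15 with limma on transformed levels, 14 with edgeR, 14 with only the libraries compared and 11 with no gamete library. At chr2:112295301-112295400 the difference of CKO-Mat-Aphi and CKO-Mat was between -3.33 points (without CKO-Mat-Aphi replicate 1) and 57.5 points when 1 library was left out. With 2 libraries a group, the median difference of 16.7 to 25.4 points between libraries of a maternal group limits what 1 tile can show.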
